A study of Homo sapiens with 36 samples.

Results

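Atirmociclib and AU2-94, 2 inhibitors of the cell-cycle kinase CDK4, were compared directly with each other in LNCaP cells that had received 2 µM of either compound for 72 h. LNCaP is an established human prostate cancer line that responds to androgen, so each result below describes 1 line in culture. The comparison used 6 of the 36 libraries of the series, 3 treated with atirmociclib and 3 with AU2-94, chosen by their labels alone. The 3 vehicle libraries of 72 h gave reference levels. Each library was made from total RNA, and the 3 replicates of a condition are described as biological replicates, so p-values measure the spread between these cultures of 1 line. The same pair of compounds at 1 µM for 72 h and at 2 µM for 24 h, in 6 other libraries each, was set beside the main contrast. The wells of the 72 h cultures had been seeded more thinly than those of 24 h, so time and density cannot be told apart. Of 29872 genes in the table, 16341 reached a normalised count of 10 in at least 3 of the 18 libraries of 72 h and were tested.

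CDK4 binds a D-type cyclin in G1 phase and phosphorylates the retinoblastoma protein RB, which frees E2F transcription factors. E2F factors switch on genes for DNA synthesis and S phase, and genes of mitosis follow later in the cycle through the MuvB complex with MYBL2 and FOXM1. Histone genes of the replication-dependent kind are transcribed mainly in S phase, when new DNA is packed into nucleosomes, and most of their transcripts end in a stem-loop and carry no poly(A) tail, so a total RNA library can hold them where a poly(A) selection would lose most. In prostate cells androgen drives genes such as KLK3, which encodes prostate-specific antigen. In bulk RNA, fewer cells in a given cycle phase and less RNA per cell cannot be told apart.

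The promoters of 5 genes on which the results turn are shown because they carry elements known from the histone, mitotic, DNA synthesis and xenobiotic groups. Each run gives the 250 bases before the start site, 5′ to 3′ on the gene's own strand, from RefSeq on GRCh38.p14. The capitals mark the CCAAT box (CCAAT or, on the other strand, ATTGG), the TATA box (TATAAA or TTTATA), the E2F site (TTTCCCGC, TTTGGCGC or TTTCGCGC and their reverse complements), the CHR element of mitotic genes (TTTGAA or TTCAAA) and the core letters bound by the aryl hydrocarbon receptor (GCGTG or CACGC), each only in the genes whose group it belongs to. H1-5 at chr6:27867589-27867838 on the minus strand and H2BC17 at chr6:27893175-27893424 on the plus strand encode a linker histone and a histone H2B. GTSE1 at chr22:46296620-46296869 on the plus strand encodes a microtubule-associated protein of G2 and mitosis, TYMS at chr18:657403-657652 on the plus strand encodes thymidylate synthase, and CYP1A1 at chr15:74725529-74725778 on the minus strand encodes a cytochrome P450 known as a target of the aryl hydrocarbon receptor.
H1-5: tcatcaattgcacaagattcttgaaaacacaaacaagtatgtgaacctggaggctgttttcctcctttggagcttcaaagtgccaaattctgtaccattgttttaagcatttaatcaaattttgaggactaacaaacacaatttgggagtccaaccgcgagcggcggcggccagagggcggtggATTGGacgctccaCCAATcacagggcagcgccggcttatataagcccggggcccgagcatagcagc
H2BC17: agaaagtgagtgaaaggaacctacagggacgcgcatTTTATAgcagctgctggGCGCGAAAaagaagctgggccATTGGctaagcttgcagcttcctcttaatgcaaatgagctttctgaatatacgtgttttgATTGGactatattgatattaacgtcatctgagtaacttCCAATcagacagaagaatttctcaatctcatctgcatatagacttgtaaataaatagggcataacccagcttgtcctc
GTSE1: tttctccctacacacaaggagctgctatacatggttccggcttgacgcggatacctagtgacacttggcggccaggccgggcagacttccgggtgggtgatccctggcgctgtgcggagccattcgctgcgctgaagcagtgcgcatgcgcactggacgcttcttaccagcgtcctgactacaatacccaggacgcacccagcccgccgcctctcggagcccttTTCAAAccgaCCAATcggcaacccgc
TYMS: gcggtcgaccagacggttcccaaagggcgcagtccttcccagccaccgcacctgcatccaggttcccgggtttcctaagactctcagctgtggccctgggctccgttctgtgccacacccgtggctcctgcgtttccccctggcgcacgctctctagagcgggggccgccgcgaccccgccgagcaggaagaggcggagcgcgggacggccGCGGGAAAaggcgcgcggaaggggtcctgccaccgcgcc
CYP1A1: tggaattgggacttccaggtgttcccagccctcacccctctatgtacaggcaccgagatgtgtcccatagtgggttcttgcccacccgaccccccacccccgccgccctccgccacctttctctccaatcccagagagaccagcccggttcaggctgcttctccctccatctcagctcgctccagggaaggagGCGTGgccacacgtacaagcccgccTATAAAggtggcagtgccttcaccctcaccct

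In windows of 300 bases (250 before and 50 after the start), which were found for 11639 of the 16335 tested symbols, the CHR letters stood in 63.8% of the 58 mitotic genes with a window and in 9.71% of all genes. CCAAT stood in 85.1% of 47 histone genes, 72.4% of the mitotic genes and 37.0% of all genes. TATAAA stood in 70.2% of the histone genes and 6.07% of all genes, and an E2F site in 40.8% of 49 DNA synthesis genes and 4.62% of all genes. The GCGTG core stood in 50.2% of all promoters and in 45.1% of those of genes lower with atirmociclib, so its presence before CYP1A1 marks nothing out. These matches describe letters, not bound sites. The TATA letters marked in H2BC17 are TTTATA at 214 to 209 bases before the start. The run tatataa in H1-5 is not among the letters searched and was left unmarked.

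Most of the large differences between the compounds went one way: 278 genes were at least 2-fold lower with atirmociclib than with AU2-94 and 68 were at least 2-fold higher, so 80.3% of the calls were lower. A gene was called where limma gave a Benjamini-Hochberg adjusted p of at most 0.05 on log2(normalised count + 1) and the log2 difference was at least 1 in size. The calls made up 1.70% of the genes tested in the lower direction and 0.416% in the higher one. Without the size threshold, 1814 genes (11.1%) were higher and 1427 (8.73%) lower. Which of these was larger depended on the scaling. With libraries scaled to equal totals 856 were higher and 2526 lower, and with a GC and length correction 2614 and 1163. The 3 atirmociclib values did not overlap the 3 AU2-94 values in 67 of the 68 higher genes and 263 of the 278 lower ones, beside 35.6% of all genes tested (5824). The direction of the calls depended on the scaling in degree, as quantile normalisation gave 109 higher and 198 lower genes (64.5% lower). The median standard error of a log2 difference was 0.124, and for 77.6% of the genes tested the 95% interval lay wholly within a 2-fold difference in either direction.

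Set beside the vehicle, most of the lower genes stood below the untreated level with both compounds. The vehicle mean lay above both compounds in 148 of the 278 lower genes (53.2%), between them in 107 (38.5%) and below both in 23 (8.27%). For the 68 higher genes it lay below both compounds in 42 (61.8%), between them in 21 (30.9%) and above both in 5 (7.35%). Distances were taken over genes scaled to unit variance, so noisy low genes counted as much as any other. By these, atirmociclib libraries stood a median of 212.3 from vehicle and AU2-94 libraries 186.9. The compounds stood 171.4 apart (167.1 to 190.4) and replicates of a group 132.2 to 144.5.

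**Figure D1:**
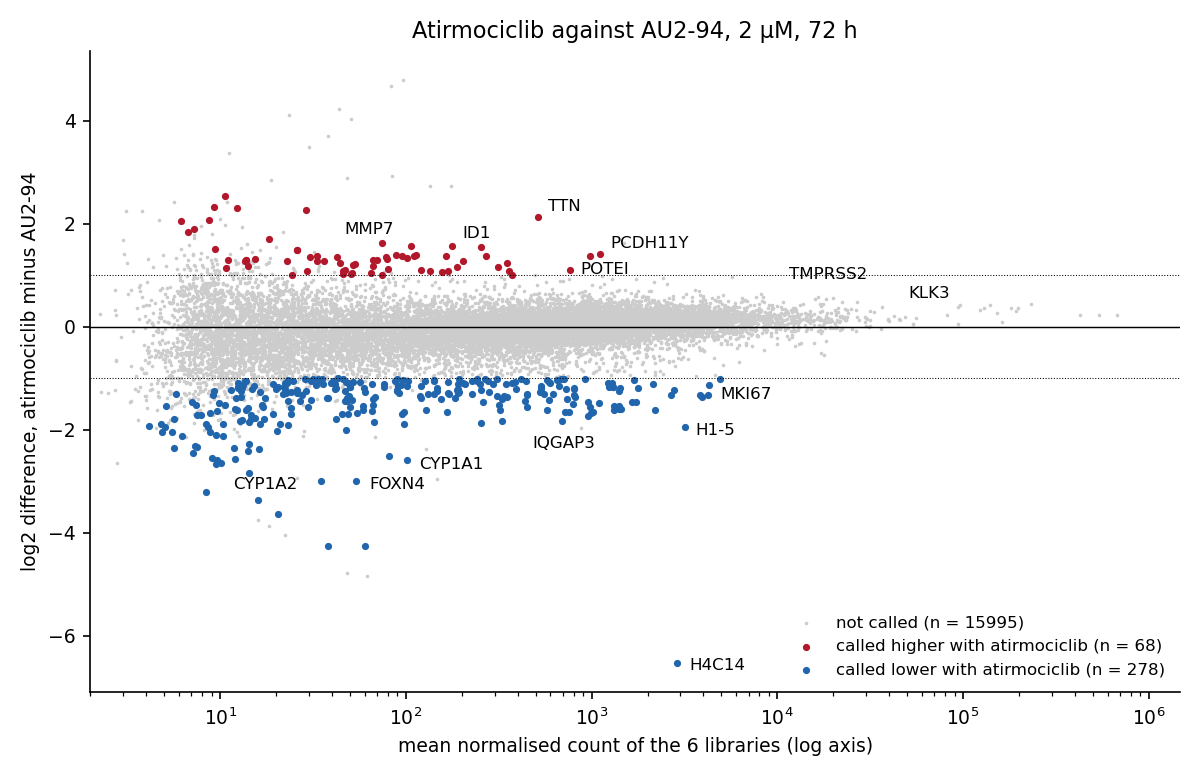
Mean level and difference of every tested gene at 2 µM and 72 h: the horizontal log axis gives the mean normalised count of the 6 libraries and the vertical axis the log2 difference, atirmociclib minus AU2-94, with called genes in colour. The 278 called lower genes outnumber the 68 called higher ones.

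All 10 luminal markers fixed for LNCaP were present, with summed normalised counts of 193775 to 201854 with atirmociclib and 162926 to 170372 with AU2-94, while KRT5, CHGA, COL1A2, CD3E and CDH5, which mark basal, neuroendocrine, fibroblast, immune and endothelial cells, were listed at 0 in both groups. Of 26 markers of those other cell types, 9 exceeded a normalised count of 3 in some library with atirmociclib and 10 with AU2-94. The highest of each list were the collagen gene COL1A1, at means of 545 with atirmociclib and 564 with AU2-94, the endothelial VWF at 559 and 521 (217 with vehicle), the immune CD68 at 96.1 and 82.5, the basal keratin KRT14 at 73.2 and 58.1, and the neuroendocrine SYP at 8.75 and 16.5. Their part in the results was not tested. The totals of normalised counts were 22577368 to 22692555 with atirmociclib and 20959012 to 21160254 with AU2-94, and the mitochondrial share was 8.33 to 8.66% against 7.01 to 7.43%. Because the deposited values are already normalised, the read depth behind them is unknown, and the part of the higher totals and mitochondrial share in small differences was not tested.

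Replication-dependent histone genes held the largest share of called genes among the 26 lists examined, all of them lower with atirmociclib. Of 62 genes written down, 52 were tested, 44 were lower past the adjusted p and 33 were called lower (63.5%, against 1.70% of all genes), with none higher. The median log2 difference was −1.27, against −0.0004 over all genes. Each class took part: 3 of 3 H1 genes, 9 of 15 H2A, 8 of 14 H2B, 7 of 11 H3 and 6 of 9 H4 genes were called lower.

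H1-5, a linker histone that binds DNA between nucleosomes, had normalised counts of 1224, 1318 and 1420 with atirmociclib and 5190, 5028 and 5015 with AU2-94, and vehicle stood at 10804, 11189 and 11465. The groups did not overlap, and both compounds lay below vehicle. The log2 difference was −1.94 ± 0.05 (SE, adjusted p = 1.8e-14, limma), a 3.84-fold higher mean with AU2-94. H2BC17, an H2B gene, stood at 404, 472 and 450 with atirmociclib and at 1523, 1513 and 1396 with AU2-94 (log2 difference −1.74 ± 0.08). H2BC17 was at 49.4% of vehicle with AU2-94 and 14.8% with atirmociclib. Both genes lie in the histone cluster of chromosome 6, as the promoter positions above show.

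The same pattern held for histones of other classes. H2AC12 (log2 −1.86 ± 0.14), H3C1 (−1.83 ± 0.11), H4C1 (−1.89 ± 0.17), H2AC16 (−1.68 ± 0.07) and H1-2 (−1.37 ± 0.05) were all called lower. Summed over the list, histone transcripts came to 52892, 51431 and 51911 normalised counts with atirmociclib, 113109, 108843 and 107810 with AU2-94 and 204079, 214013 and 212026 with vehicle. The median histone gene stood at 51.8% of vehicle with AU2-94 and 19.99% with atirmociclib. Histone genes that are made throughout the cycle, a list added after the data were seen, showed a median of −0.34. Of 11 tested, 6 were lower past the adjusted p (54.5%, against 8.73% of all genes) and 1 was called lower (CENPA, the histone H3 variant of centromeres, which is also a mitotic gene).

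Of the histones, H4C14 had the most extreme fitted difference, and its counts were widely spread with atirmociclib. Its counts were 8.63, 1320 and 13.6 with atirmociclib and 5701, 4373 and 5881 with AU2-94, and vehicle libraries ran from 2256 to 12680. Its transcript shares an identical stretch of 1547 bases with H4C15, a gene chosen for naming after its values were seen, so reads could be placed on either copy. H4C15 stood at 2424, 892 and 2327 with atirmociclib and 921, 2284 and 79.6 with AU2-94. The sum of both copies was 2328 ± 111 with atirmociclib, 6413 ± 393 with AU2-94 and 13520 ± 1156 with vehicle (SD, n = 3), a 2.75-fold higher mean with AU2-94, beside the fitted log2 difference of −6.53 for H4C14 alone. The pair H2AC18 and H2AC19, which share 533 identical bases, summed to 4314 ± 214 and 6700.5 ± 197, a ratio of 1.55.

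Mitotic genes formed the second broad group. Of 69 tested, 64 were lower with atirmociclib past the adjusted p (92.8%, against 8.73% of all genes). Calls numbered 23 (33.3%, against 1.70%), and the median log2 difference was −0.83. The 5 that did not pass were KIF20B, MAD2L1, CKS2, KIF18A and CKS1B, with differences from −0.36 to 0.03. The median mitotic gene stood at 68.9% of vehicle with AU2-94 and 40.7% with atirmociclib.

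KIF20A, a kinesin of the late mitotic spindle, had 330, 403 and 362 normalised counts with atirmociclib, 1118, 1156 and 1181 with AU2-94 and 1557, 1879 and 1621 with vehicle. Every AU2-94 library was above every atirmociclib library, at a log2 difference of −1.66 ± 0.09. TOP2A, the topoisomerase that untangles sister chromosomes, stood at 795, 941 and 1038 against 2567, 2598 and 2456 (−1.47 ± 0.08). CCNA2, cyclin A2 of S and G2 phase, stood at 315, 314 and 338 against 885, 836 and 863 (−1.42 ± 0.07). GTSE1, shown above with its CHR and CCAAT letters close to the start, stood at 214, 230 and 262 against 634, 613 and 679 (−1.45 ± 0.10), and CDCA3, which takes part in mitotic entry, was lower by a similar size (−1.56 ± 0.08).

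Not all mitotic regulators moved so far. FOXM1, a transcription factor of mitotic genes, was 1394 ± 88.6 with atirmociclib and 2129 ± 106 with AU2-94 (SD, n = 3), a log2 difference of −0.61 ± 0.05, and CCNB1, the mitotic cyclin B1, differed by −0.28 ± 0.06. Both passed the adjusted p and neither reached a 2-fold difference.

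Genes of DNA replication and nucleotide synthesis were lower in most cases by smaller amounts. Of 57 tested, 43 were lower past the adjusted p (75.4%, against 8.73% of all genes) and none was higher. Calls numbered 5 (8.77%, against 1.70%), and the median was −0.49. The median gene stood at 72.0% of vehicle with AU2-94 and 51.1% with atirmociclib. The called genes were POLE2, CLSPN, TYMS, RRM2 and PRIM1.

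TYMS, which makes thymidylate for DNA, stood at 468, 494 and 501 with atirmociclib, 1153, 1079 and 1149 with AU2-94 and 1955, 2178 and 2052 with vehicle. The groups were well apart at a log2 difference of −1.21 ± 0.09. Its exons share bases with ENOSF1 on the opposite strand and the strand setting of the counting is not given in the sources used here, so reads of the pair may be mixed. RRM2, a subunit of ribonucleotide reductase, was 2.27-fold higher with AU2-94 (−1.18 ± 0.13), and CLSPN, which encodes the checkpoint adaptor claspin, 2.49-fold (−1.31 ± 0.10). POLE2, a subunit of DNA polymerase epsilon, was at 96.6% of vehicle with AU2-94 and 38.3% with atirmociclib. TK1, thymidine kinase, differed by −0.70 ± 0.06 and was not called.

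Around the G1 switch itself the picture was mixed. Of 20 G1 cyclins, CDKs, E2F and RB family genes, 8 were lower past the adjusted p, 3 were higher and 3 were called lower, with a median of −0.10. The called genes were CCNE2, which encodes cyclin E2 (−1.29 ± 0.20), and the repressive E2F factors E2F8 (−1.29 ± 0.24) and E2F7 (−1.05 ± 0.27). CCNE2 overlaps INTS8 on the opposite strand, and E2F7 lost its call in 6 of the alternative settings. CCND1, cyclin D1, was slightly higher with atirmociclib at 11724 ± 376 against 9880 ± 415 (log2 0.25 ± 0.05), while the kinase gene CDK2 was lower (−0.51 ± 0.07).

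The CDK inhibitor genes were lower rather than higher with atirmociclib. All 8 tested had negative differences, 6 passed the adjusted p and 2 were called. CDKN2C, which encodes the CDK4 and CDK6 inhibitor p18, had 57.7, 73.0 and 57.9 normalised counts with atirmociclib, 191, 203 and 188 with AU2-94 and 443, 373 and 446 with vehicle. The groups did not overlap (log2 −1.62 ± 0.13). CDKN3, a phosphatase gene of the cell cycle, differed by −1.11 ± 0.10, and CDKN1A, which encodes p21, by −0.44 at means of 1687 and 2295.

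No difference in CDK4, RB1, MYC or CDK6 passed the adjusted p. CDK4, the kinase that both compounds inhibit, stood at 2287 ± 199 with atirmociclib and 2088 ± 44.4 with AU2-94 (SD, n = 3), and the 95% interval of the log2 difference ran from −0.01 to 0.26. Its exons overlap TSPAN31 on the other strand. RB1 had an interval of −0.23 to 0.07, and MYC, a growth-promoting transcription factor, one of −0.11 to 0.10. CDK6 was low, at 17.5, 15.7 and 26.8 with atirmociclib and 15.1, 40.9 and 13.1 with AU2-94, with an interval from −0.88 to 0.78 that leaves its difference poorly measured.

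In 23 of the lower genes both compounds lay above vehicle, and CYP1A1 and CYP1A2 were among the named ones. CYP1A1 had 53.6, 17.3 and 20.3 normalised counts with atirmociclib, 226, 120 and 169 with AU2-94 and 6.24, 13.2 and 9.70 with vehicle. All 3 AU2-94 libraries exceeded every atirmociclib library, at a log2 difference of −2.59 ± 0.37 (adjusted p = 4.8e-05, limma). CYP1A2, a related P450, stood at 9.86, 7.51 and 4.28 against 69.4, 47.0 and 71.1 (−2.99 ± 0.44), and was at 1.92, 0 and 0 in vehicle. TIPARP and AHRR, known targets of the same receptor, differed by 0.02 and −0.39 and did not pass the adjusted p. Of 21 tested in the xenobiotic list, 5 (23.8%) were lower past the adjusted p (the others being CYP3A5 at −0.51, NQO1 at −0.31 and SLC7A11 at −0.25). In the other direction 3 (14.3%) were higher (TXNRD1 at 0.48, ME1 at 0.41 and SRXN1 at 0.25). Over all genes 8.73% were lower and 11.1% higher.

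FOXN4, a forkhead transcription factor gene, was low in every library. It had 12.6, 10.51 and 10.47 with atirmociclib, 106, 74.5 and 111 with AU2-94 and 58.2, 48.3 and 67.2 with vehicle. Thus AU2-94 lay above vehicle and atirmociclib below it in every library, at a log2 difference of −2.99 ± 0.25. IQGAP3, a scaffold protein of proliferating cells, was 3.54-fold higher with AU2-94 (−1.82 ± 0.08), and HMGB2, a chromatin protein, 2.90-fold (−1.54 ± 0.06). The unnamed locus ENSG00000287064 stood at 380.0 ± 5.89 in vehicle, 138 ± 10.2 with AU2-94 and 24.1 ± 6.53 with atirmociclib (SD, n = 3), with a difference between the compounds of −2.50 ± 0.18. ST8SIA4, a polysialyltransferase gene, and RAB31, a small GTPase gene, were also called lower, with log2 differences of −1.85 ± 0.33 and −1.70 ± 0.28.

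Among the 278 lower genes, 199 belonged to none of the lists, and 217 lay outside the histone, mitotic and DNA synthesis lists. Higher genes were fewer, and 63 of the 68 belonged to none of the lists. TTN, the gene of the giant muscle protein titin, stood at 936, 355 and 1256 with atirmociclib, 229, 142 and 151 with AU2-94 and 118, 97.7 and 172 with vehicle. The groups did not overlap, but the atirmociclib libraries were spread from 355 to 1256, and the log2 difference was 2.13 ± 0.48. At 1 µM the difference had the opposite sign (−0.87, at means of 178 with atirmociclib and 343 with AU2-94) and did not pass the adjusted p (0.33, limma), nor did its change of 3.00 between the doses (adjusted p = 0.093, limma). TTN shares exon bases with its antisense gene TTN-AS1. DIO3, a deiodinase that inactivates thyroid hormone, stood at 107, 107 and 125 against 28.0, 36.5 and 44.3 (1.63 ± 0.31). MMP7, a secreted protease gene, stood at 112, 187 and 185 against 47.0, 54.2 and 57.0, above vehicle at 9.93 to 11.2 in both (1.56 ± 0.24).

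ID1 and ID3, inhibitors of DNA binding and targets of BMP signalling, lay below vehicle with both compounds and further below with AU2-94. ID1 had 424, 196 and 186 normalised counts with atirmociclib, 116.3, 56.3 and 88.9 with AU2-94 and 504, 540 and 530 with vehicle (log2 1.57 ± 0.30). Replicate 1 was the highest library of its group under both compounds. ID3 behaved alike at 709, 391 and 384 against 269, 182 and 227 (1.08 ± 0.20), and its call was lost without atirmociclib replicate 1, without AU2-94 replicate 2 or at equal totals. Among the 28 genes of the TGF-beta and BMP list, 5 (17.9%) were higher past the adjusted p and 3 (10.7%) lower (3 and 4 at equal totals). The shares over all genes were 11.1% and 8.73%. At 1 µM for 72 h the log2 differences were 0.13 for ID1 and 0.06 for ID3, neither past the adjusted p.

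Other higher genes were apart in every library at modest levels. ACTRT3, an actin-related gene, stood at 278, 298 and 289 with atirmociclib, 122, 134 and 101 with AU2-94 and 117, 114 and 129 with vehicle (log2 1.27 ± 0.14). AU2-94 and vehicle overlapped there, while atirmociclib stood above both. CEROX1, a long noncoding RNA gene, was at 419, 268 and 420.2 against 95.8, 80.8 and 240.1, with AU2-94 replicate 3 far above the other AU2-94 libraries (1.55 ± 0.34). ENSG00000269889 stood at 115, 135 and 166 against 50.1, 55.9 and 49.9 (1.38 ± 0.22).

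Several higher genes are members of families with near-identical copies. PCDH11Y, a protocadherin gene, stood at 1986, 1330 and 1513 with atirmociclib and 522, 648 and 626 with AU2-94 (1.41 ± 0.14), and 5200 bases of its transcript match PCDH11X at 98.3% identity, so the level of each is uncertain. POTEJ (1.37 ± 0.16) and POTEI (1.11 ± 0.09), of a primate-specific ankyrin repeat family, share 3220 bases at 99.6% identity. Among the long noncoding loci, ENSG00000287499 was at 1600.2, 1342 and 1329 against 591, 492 and 561 (1.38 ± 0.09). SOX8, a transcription factor gene, was 2.38-fold higher at 541, 488 and 445 against 209.7, 194 and 216.

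More androgen-responsive genes were higher than lower with atirmociclib, by small amounts. Of 100 tested, 34 were higher past the adjusted p and 9 were lower, beside 11.1% and 8.73% of all genes. Only MAK, a kinase gene, was called (−1.35 ± 0.24), and the median was 0.14. At equal library totals the split was 18 higher and 19 lower, so this direction depends on the scaling. KLK3 stood at 51664 ± 2960.1 with atirmociclib, 45214 ± 2429.9 with AU2-94 and 20524 ± 632 with vehicle (log2 0.19 ± 0.05). TMPRSS2, a protease gene, was at 432% of vehicle with atirmociclib and 291% with AU2-94 (0.57 ± 0.07). KLK2, 1 of the luminal markers, went the other way, at means of 4838 with atirmociclib, 5830 with AU2-94 and 2338 with vehicle.

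The tested UGT2B genes, whose enzymes inactivate androgens by glucuronidation, lay below vehicle with both compounds and less so with atirmociclib. All 5 tested were higher past the adjusted p, against 11.1% of all genes, and 1 was called, against 0.416%. The median log2 difference was 0.64. The median stood at 23.8% of vehicle with AU2-94 and 42.7% with atirmociclib. UGT2B10 had 93.1, 91.6 and 92.8 normalised counts with atirmociclib against 50.7, 33.8 and 38.3 with AU2-94 (1.18 ± 0.21). Its transcript shares 312 bases at 98.1% identity with UGT2B11. Of the list, none of 5 tested passed the adjusted p at 1 µM for 72 h (median 0.32). At 2 µM for 24 h, 1 of 6 did.

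HEXIM1, the gene of an inhibitor of the transcription kinase P-TEFb, stood at 637, 629 and 673 with atirmociclib, 1322, 1265 and 1265 with AU2-94 and 1524, 1578 and 1431 with vehicle. The groups were well apart, and the log2 difference of −0.99 ± 0.07 fell just short of the size threshold. CDK9, the kinase of P-TEFb, was higher with atirmociclib (0.38 ± 0.07), as was CDK19 of the Mediator complex (0.55 ± 0.05). Of 34 genes in that list, 6 (17.6%) were higher and 3 (8.82%) lower past the adjusted p, beside 11.1% and 8.73% of all genes. None was called, and at equal totals 2 were higher and 11 lower and under quantile normalisation 4 and 4. Among 51 immediate early and short-lived transcripts, 12 (23.5%) were higher and 7 (13.7%) lower (8 and 9 at equal totals), with JUN, an AP-1 subunit gene, at 0.71 and DUSP4, a MAP kinase phosphatase gene, at −1.06 ± 0.13.

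Some lists moved by small amounts that depended on the scaling. All 13 mitochondrially encoded subunits had positive differences and 10 passed the adjusted p (median 0.37), with 2 passing under quantile normalisation. Of 77 cytosolic ribosomal protein genes 33 (42.9%) were higher past the adjusted p (median 0.15), against 11.1% of all genes. Of 72 nuclear respiratory chain genes 23 (31.9%) were higher, and of 52 lysosome genes 19 (36.5%) with 3 lower. At equal totals, which moved the median of all genes by −0.10, these became 4, 10 and 10. NPC1, a lysosomal cholesterol transporter, was 3165 ± 142 against 1652 ± 190 (0.94 ± 0.08), and of 36 cholesterol genes 13 were higher and 5 lower (9 and 8 at equal totals).

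Of the remaining lists, none had more than 3 called genes. Over all genes tested, 11.1% were higher and 8.73% lower past the adjusted p. Of 37 p53 target genes 3 (8.11%) were higher and 8 (21.6%) lower. The counts were 6 (10.2%) and 8 (13.6%) of 59 hypoxia targets. They were 12 (25.5%) and 9 (19.1%) of 47 ATF4 and unfolded protein response genes. Of 52 interferon genes they were 4 (7.69%) and 5 (9.62%), near the shares of all genes. These splits depended on the scaling: at equal totals they were 1 and 13, 1 and 11, 9 and 13, and 1 and 10, and under quantile normalisation 3 and 9, 2 and 8, 11 and 13, and 6 and 3. Called members included DDB2, a DNA damage recognition gene among the p53 targets (−1.07 ± 0.10), at 213, 271 and 268 against 536, 528 and 505. NDUFA4L2 and STC1 of the hypoxia list lay above vehicle with both compounds, at 1296% and 330% of it with atirmociclib and 2739% and 768% with AU2-94, and lost their calls in 9 and 8 alternative settings. CHAC1, a glutathione-degrading enzyme gene regulated by ATF4, was at 60.5, 55.2 and 52.8 against 114, 129.6 and 109.9, below vehicle at 278 to 304 in both groups (−1.05 ± 0.27). OAS3, an antiviral synthetase gene, was lower at 198, 170 and 176 against 495, 484 and 453 (−1.40 ± 0.10), while OASL of the same family was higher (1.24 ± 0.40) and lost its call in 8 alternative settings. Of 62 ribosome biogenesis genes 9 (14.5%) were higher and 2 (3.23%) lower, which turned to 2 and 10 at equal totals and 3 and 8 under quantile normalisation. Of 12 MYC network genes 3 were higher and 2 lower (MXD3, a MAX-binding repressor gene that shares exon bases with its neighbours, −1.27 ± 0.16), of 17 BCL2 family genes 3 and 1 (0 and 3 at equal totals), of 8 neuroendocrine genes 1 and 2, and of 12 senescence genes 0 and 5. Among 15 surface antigens targeted in prostate cancer 8 were higher and 2 lower. STEAP1 stood at 4718 ± 39.0 against 3217 ± 49.1 (0.55 ± 0.05), while PSCA differed by −0.62.

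At 1 µM for 72 h the same pair of compounds differed less. There, 73 genes were called lower (0.447% of those tested) and 21 higher (0.129%). Of the 278 genes lower at 2 µM, 252 had the same sign at 1 µM, 126 passed the adjusted p in that direction and 49 were called, which is 17.6% of the 278 and 67.1% of the 73. Of the 68 higher genes, 60 had the same sign and 5 were called (7.35% of the 68 and 23.8% of the 21). The median differences at 1 µM were −0.70 for the lower genes and 0.61 for the higher ones. In a test of the change with dose, 1 gene was called (0.00612%), H2AC12, and 33 genes passed the adjusted p, though the count went to 0 without most single libraries. H1-5 went from −1.29 at 1 µM to −1.94 at 2 µM (adjusted p of the change 0.00062, limma) and HEXIM1 from −0.28 to −0.99 (0.0037).

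At 2 µM for 24 h, 148 genes were already lower with atirmociclib (0.917% of 16137 tested) and 6 were higher (0.0372%). Of the lower genes of 72 h, 265 were tested at 24 h, 234 had the same sign and 49 were called, which is 17.6% of the 278 and 33.1% of the 148. Of 64 higher genes tested at 24 h, 28 had the same sign and none was called, with a median of −0.07. There 4 of the 64 were higher past the adjusted p of limma, beside 827 of all 16137 genes tested. Histones were lower at both times, with 41 of 51 past the adjusted p at 24 h, against 4.31% of all genes lower there, and a median of −0.92. H1-5 differed by −2.60 at 24 h and −1.94 at 72 h, and CLSPN by −2.47 and −1.31.

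The difference between the compounds itself changed with time in 89 genes (0.528% of 16850 tested). Among them, the higher genes TTN, ID1, MMP7 and PCDH11Y had 24 h differences of −0.31, −0.22, −0.57 and −0.23, none past the adjusted p. FOXN4 differed by −0.42 at 24 h and by −2.99 at 72 h. CDKN3 went from 0.07 to −1.11. Of 69 mitotic genes, 23 had a lower difference between the compounds at 72 h than at 24 h past the adjusted p of the change. That is 33.3%, against 1.58% of all genes tested, and none had a higher difference past it.

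**Figure D2:**
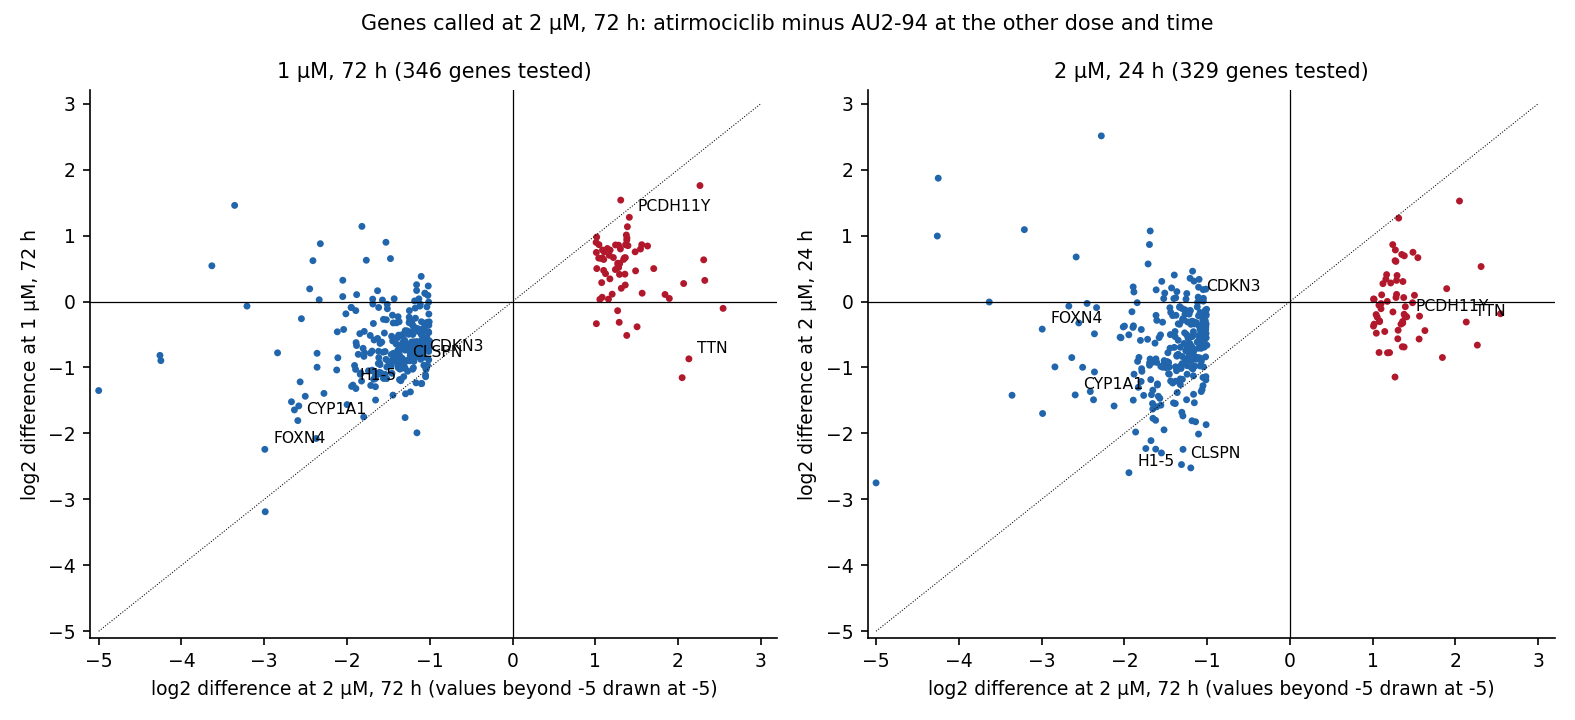
The atirmociclib minus AU2-94 log2 difference of the called genes in 3 settings: each point is 1 gene, the horizontal axes give 2 µM at 72 h (values beyond −5 drawn at −5) and the vertical axes 1 µM at 72 h or 2 µM at 24 h, with blue for lower and red for higher genes. The lower genes keep a negative median of −0.70 at 1 µM and −0.67 at 24 h, and the higher genes a median of 0.61 at 1 µM and −0.07 at 24 h.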

How the data were processed

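LNCaP total RNA libraries (Universal Plus Total RNA-Seq, paired-end reads) were processed by the authors with nf-core/rnaseq, STAR 2.6.1d on GRCh38 and DESeq2. The counter, the annotation release and the strand setting are not given in the sources used here. The authors deposited 1 table of normalised counts, a signal that is not whole, so that read depth is unknown and no count model was used. The groups came from the labels. The 18 libraries of 72 h were fitted together with limma 3.58.1 in R 4.3.3 on log2(normalised count + 1), which understates the change of low genes, after a filter of at least 10 in 3 libraries. Those of 24 h were fitted likewise, and all 36 for changes with time. A call needed a Benjamini-Hochberg adjusted p of at most 0.05 and a log2 difference of at least 1. The script was tested on simulated data.

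Genes were named by rule: in each direction the 12 called genes of largest difference with a mean of at least 50 and no overlap, the 3 of smallest adjusted p, up to 4 called members of each list (or 2 where none was called), and a fixed set of cell cycle and androgen-responsive genes, 1 of which is not reported here. H4C15, H2AC19, MYOD1, BIRC3, RELB, IL32, NKILA and PCDH11X were named after their values were seen, as were other list members given by value. The members and lists were chosen with earlier results of these data known, and the lists were written from general knowledge. A level of 3 was taken as the floor. Exon overlaps and stretches of at least 100 bases at 98% identity were found in GENCODE 44 with BLAST 2.17.0. Promoter windows came from RefSeq on GRCh38.p14. The labels call the replicate number a batch. The alternatives were other pseudocounts, filters, scalings and sample sets, a replicate block, a GC and length correction chosen after seeing the data, and each replicate left out.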

Additional observations from a re-analysis of the deposited data

Results flagged for a closer look

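For 18 of the 101 named genes the difference between atirmociclib and AU2-94 at 2 µM changed between 24 h and 72 h. The limma test of the change itself passed the adjusted p with a log2 size of at least 1. Over all genes tested 89 of 16850 (0.528%) did so. Most named genes were chosen by their 72 h difference, which this test uses again, so the selection favours a large change. The change, 72 h minus 24 h, was 2.44 for TTN, 1.79 for ID1, 1.38 for ID3, 2.13 for MMP7, 2.42 for DUSP5, 1.64 for PCDH11Y, 1.39 for PCDH11X, 1.06 for POTEJ and 1.01 for POTEI. Among loci without a symbol it was 1.47 for ENSG00000272941, 1.603 for ENSG00000290700, 1.32 for ENSG00000287499 and −1.51 for ENSG00000287064. It was −2.57 for FOXN4, −1.17 for CDKN3 and 1.16 for CLSPN, whose difference was negative at both times and smaller at 72 h. IL32 changed by 2.04 and NKILA by 1.29. DUSP5 was low, at means of 32.2 with atirmociclib and 13.6 with AU2-94 at 72 h, the adjusted p of its change was 0.048 (limma), and its 72 h call was lost in 12 alternative settings. Cell density at seeding differed between the times, and its part was not tested.

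H2AC12 was set apart by dose: its difference was −0.80 at 1 µM and −1.86 at 2 µM, a change of −1.06 by the same kind of test. It too was named by its 2 µM difference, which this test uses again.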

How the results depend on the processing

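No named gene changed direction past its test. The list medians had no such test, and 137 of 608 list values were counted as moved over the alternatives. Some list splits turned round with the scaling. For ribosome biogenesis, 9 genes higher and 2 lower past the adjusted p became 2 and 10 at equal totals. Of 1897 values for 101 named genes over the alternatives, 59 lost the call and 5 gained it. A mean filter of 100 gave 17 higher and 124 lower genes at 2 µM and 72 h, 5 and 39 at 1 µM, 0 and 62 at 24 h, and 40 for the change with time, with fewer genes tested. Quantile normalisation gave 109 higher genes (14 higher and 77 lower at 24 h), and equal totals 44 higher. For 6 higher genes at 24 h, other settings gave 3 (pseudocount 8), 18 (no filter), 1 (only the libraries of the contrast), 12 (all 36 libraries), 11 (GC and length correction) and 10 (that with the replicate block). With only the libraries of the contrast, 83 genes were lower at 24 h and 50 changed with time. The 1 gene changed with dose became 2 (pseudocounts 8 and 0.5, no filter, median-ratio factors, only the libraries of the contrast) or 0 (all 36 libraries, no trend, replicate block, GC and length correction, with or without the block). The replicate block gave 72 higher and 284 lower genes. Deviations of same-numbered libraries from their group means had a mean correlation of −0.0022 over 45 pairs, so the number was not taken to pair them. Leaving out each replicate in turn gave 53 to 75 higher and 229 to 300 lower genes at 2 µM and 72 h, 8 to 22 (8 without atirmociclib replicate 2 of 1 µM) and 54 to 61 at 1 µM, 4 to 10 (10 without AU2-94 replicate 1 of 24 h) higher at 24 h, 0 to 4 for the change with dose (4 without atirmociclib replicate 2 of 2 µM, 0 without any other library except atirmociclib replicate 3 of 2 µM) and 63 to 93 for that with time. The causes were not tested.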

Other observations

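BIRC3, RELB, IL32 and NKILA belong to no list that was tested, were picked after their values were seen, and were each called higher with atirmociclib at 2 µM and 72 h. BIRC3, an inhibitor of apoptosis, stood at 287, 192 and 310 normalised counts against 114, 117 and 113 with AU2-94. RELB, an NF-kB subunit gene, stood at 49.3, 59.8 and 45.4 against 20.98, 24.7 and 16.5, and IL32, a cytokine gene, at 117, 132 and 88.9 against 44.3, 46.3 and 38.2. NKILA, a long noncoding RNA, stood at 211, 202 and 221 against 102, 102 and 99.6. The groups did not overlap in any of the 4 genes. The same held for 67 of the 68 called higher genes and 35.6% of all genes tested. As the 4 were picked from called genes, this does not set them apart. At 1 µM the log2 differences were 0.04 for BIRC3, 0.03 for NKILA, 0.85 for RELB and 0.42 for IL32, none past the adjusted p. RELB lost its call without AU2-94 replicate 3 and NKILA at equal totals.

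MYOD1, a transcription factor gene of skeletal muscle also chosen after its values were seen, was listed at 0 in all 3 vehicle libraries, at 38.6, 45.0 and 53.5 with atirmociclib and at 96.5, 165 and 190 with AU2-94 (log2 difference −1.65 ± 0.44). Its call was lost in the fit of all 36 libraries and without AU2-94 replicate 3.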
